A study of Mus musculus with 33 samples.

Results

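The genes described here are Gm33962, Gm8221, Apol7c and Gm50028, 4 genes of the 55487 listed in the deposited tables. They were chosen by gene name from their counts: each had 0 counts in all 3 libraries of wild-type set A or of Hp1α/β Δ/Δ ESCs, and each was expressed in cells without all HP1 genes (Hp1α/β/γ Δ/Δ, called Hp1-null here). Those 3 conditions therefore fixed the pattern, and the values in them are given as a description with no test. Every other condition was not part of the choice.

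RNA-seq had been performed on mouse embryonic stem cells (ESCs, pluripotent cells of the early embryo grown in culture) of the C57BL/6 strain. There were 33 libraries in 11 conditions with 3 libraries each. The conditions were 2 separate wild-type sets (A and B), single mutants of Hp1α (gene Cbx5), Hp1β (Cbx1) or Hp1γ (Cbx3), the double mutants Hp1α/β, Hp1α/γ and Hp1β/γ, the Hp1-null cells, Setdb1 F/F ESCs, in which Setdb1 is flanked by recombination sites, and Setdb1 Δ/Δ cells. By the study's methods, the single and double mutants were constitutive knockout clones made with CRISPR/Cas9. The Hp1-null cells came from Hp1α/β Δ/Δ cells with a floxed Hp1γ gene after transfection of Cre recombinase, so they share the loss of Hp1α and Hp1β with the Hp1α/β Δ/Δ ESCs. The labels give wild type as the genotype of set A, with which their table compares them, while the study describes the control of these cells as the floxed line with a control vector. The ESCs had been kept on fibroblast feeder cells that were removed before use.

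HP1 proteins bind histone H3 methylated at lysine 9 (H3K9), the mark of condensed and mostly silent chromatin. SETDB1 is an enzyme that writes the trimethylated form of this mark, and it is brought to many sites by KRAB zinc finger proteins through TRIM28. The mark is known in ESCs for covering repeats, clusters of zinc finger genes and genes of other tissues. HP1 and SETDB1 are thus read here as the reader and a writer of the same mark.

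Total counts per library ran from 17330936 to 25743149. All 9 ESC markers (among them Pou5f1, Sox2 and Nanog) were present at 1 CPM (counts scaled to library size, with TMM factors over all 33 libraries) or more in every condition. Transcripts of the deleted genes were lower but present: Cbx1 was at 42.1 to 47.6 CPM in Hp1-null cells and at 430 to 448 in set A, and Cbx3 was at 59.2 to 63.9 and 173 to 186 CPM. Cbx5 was the least reduced, at 267 to 276 CPM against 479 to 490 in set A, and Hp1α/β Δ/Δ ESCs were lower, at 199 to 208 CPM. Setdb1 was at 67.7 to 71.6 CPM in Setdb1 Δ/Δ cells and at 131 to 136 in Setdb1 F/F ESCs. Library 2 of the Hp1α/γ Δ/Δ ESCs stood apart from its group, with Cbx5 at 85.4 CPM against 182 and 183 in the other libraries. The study calls its replicates biological and describes the RNA of Hp1-null cells as coming from independent experiments. The labels do not say that replicates were separate cultures, and the p-values measure the spread between these samples.

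The 4 genes are of different kinds, and the transcript sequences below are those of the annotation. Reads were not examined, so which parts of each gene were transcribed was not tested. Apol7c (ENSMUSG00000044309) lies at chr15:77524852-77533316 on the minus strand (GRCm38, GENCODE M21) and is the only member annotated as protein coding. It encodes an apolipoprotein L, a family of lipid-binding proteins known from innate immune cells, and Apol7c itself is known from dendritic cells. Gm8221 (ENSMUSG00000095704) lies in the same cluster of Apol genes at chr15:77621834-77626637 on the plus strand, 88.5 kb from Apol7c, and is annotated as an unprocessed pseudogene. Its annotated transcript of 1110 bases aligned without gaps to bases 168 to 1277 of the Apol7c transcript at 97.0% identity. Those bases are the entire coding part of Apol7c. In the reading frame of Apol7c the first stop codon of Gm8221 was codon 370, its last, but its first codon is not ATG. A stretch rich in differences, 9 in 120 bases, is shown with the differing bases in capitals, first bases 721 to 840 of the Gm8221 transcript and then bases 888 to 1007 of Apol7c.
Gm8221: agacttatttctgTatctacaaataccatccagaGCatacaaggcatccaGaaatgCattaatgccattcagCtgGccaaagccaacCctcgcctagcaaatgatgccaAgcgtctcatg
Apol7c: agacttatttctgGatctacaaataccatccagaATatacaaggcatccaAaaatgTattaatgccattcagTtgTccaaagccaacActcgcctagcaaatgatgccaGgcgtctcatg

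The copies matter for the counts. The longest run shared by the transcripts without a difference was 155 bases. Of the 1080 words of 31 bases in Gm8221, 511 also occurred in Apol7c and 702 (65.0%) in a transcript of any other gene. Of the 2030 such words in Apol7c, 785 (38.7%) occurred elsewhere. The authors' counting could therefore split reads between Apol7c, Gm8221 and their relatives Apol7a, Apol7b and Apol7e, and the separate level of each is uncertain to that extent.

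Gm33962 (ENSMUSG00000098137) lies at chr6:130868228-130888691 on the minus strand and is annotated as a transcribed unprocessed pseudogene. Its sequence is that of a zinc finger gene. The transcript of 2592 bases matched transcripts of 214 other genes, of which 94 carry a Zfp symbol, and a motif of 17 letters for the linker that joins C2H2 zinc fingers occurred in it 9 times on the sense strand. Of the 8 distances between neighbouring matches, 7 were exactly 84 bases, the length of 1 finger with its linker. Only 0.821% of the 55450 genes in GENCODE M21 had 3 or more matches in a transcript. The 4 consecutive finger units at bases 1513 to 1848 are shown, since they identify the kind of gene, with the linker motif in capitals.
Gm33962, unit 1: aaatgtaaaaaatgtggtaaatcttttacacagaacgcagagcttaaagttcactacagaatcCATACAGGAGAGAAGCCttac
Gm33962, unit 2: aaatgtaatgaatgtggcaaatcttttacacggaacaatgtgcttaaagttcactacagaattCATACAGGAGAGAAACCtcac
Gm33962, unit 3: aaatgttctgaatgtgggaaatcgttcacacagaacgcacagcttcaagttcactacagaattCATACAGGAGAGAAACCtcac
Gm33962, unit 4: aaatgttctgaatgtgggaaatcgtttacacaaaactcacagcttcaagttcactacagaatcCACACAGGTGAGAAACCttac

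The closest relatives of Gm33962 stood near 0 in all conditions. Gm38706, 87.3% identical over 2612 aligned bases, had 1 count in the 33 libraries together. Gm5581 had 5 counts, Gm44133 3, Gm21940 4 and Gm19965 0. Gm44527, 86.7% identical over 2385 bases, had 21 counts, of which 20 were in Hp1-null cells (mean 0.285 CPM). Of the words of 31 bases in Gm33962, 37.1% occurred in another gene, so its count carries the same uncertainty.

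Gm50028 (ENSMUSG00000117598) lies at chr17:76327541-76339195 on the minus strand and is annotated as a lincRNA, an RNA without a protein between other genes. Its transcript has 2 exons of 50 and 223 bases with an intron of 11382 bases. None of its 31-base words occurred in another gene, and it is the member whose count is least affected by copies. The complete transcript of 273 bases is shown, with AATAAA, the letters of the common polyadenylation signal, in capitals, 24 bases before the end.
Gm50028: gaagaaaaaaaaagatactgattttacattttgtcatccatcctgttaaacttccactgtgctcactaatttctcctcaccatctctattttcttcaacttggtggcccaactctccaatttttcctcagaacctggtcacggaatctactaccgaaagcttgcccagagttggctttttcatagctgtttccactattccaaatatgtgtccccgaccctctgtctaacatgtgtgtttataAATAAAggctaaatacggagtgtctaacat

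None of the 4 overlapped another annotated gene. The strand of the reads was not tested. A promoter sequence from RefSeq (GRCm38.p6) was found for 1 of the 4 members, Apol7c. The 250 bases before its start, chr15:77533316-77533565 on the minus strand, are shown in transcript orientation because this is the only promoter of the set that could be read, with TATAA in capitals.
Apol7c promoter: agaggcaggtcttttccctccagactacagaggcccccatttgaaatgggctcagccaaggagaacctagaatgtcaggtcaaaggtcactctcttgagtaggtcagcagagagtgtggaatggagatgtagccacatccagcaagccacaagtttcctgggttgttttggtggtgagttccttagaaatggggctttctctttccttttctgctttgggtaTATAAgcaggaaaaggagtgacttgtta

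The motif GAAA, any 2 bases and GAAA again, as in interferon-stimulated response elements, had 2 overlapping matches on the reverse strand, 49 and 55 bases before the start, and 2.98% of windows held it. TATAA began 28 bases before the start, and 22.8% of 32851 promoter windows of the same length held it on either strand. The window had no CG dinucleotide, as had 7.87% of windows. CCAAT (33.8% of windows), GGGCGG (32.7%), CACGTG (6.02%) and TTCNNNGAA (7.02%) were absent on both strands. A match is a run of letters and was not tested as a site.

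In Hp1-null cells all 4 genes were expressed at 12 CPM or more in each library, and in the 30 other libraries none of them exceeded 4 CPM. Apol7c had 352, 381 and 480 counts in libraries 1, 2 and 3 of Hp1-null cells, a mean of 17.3 ± 1.89 CPM (SD, n = 3). It had 0 counts in every library of set A and of Hp1α/β Δ/Δ ESCs. Against the limit of 3 counts per library that a count of 0 allows (a mean of 0.141 CPM in set A), its level was at least 122-fold higher. Such limits cover counting error only.

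Gm8221 had the most counts of the 4, not corrected for length, with 909, 925 and 1081 and a mean of 41.6 ± 2.50 CPM. It had 1, 1 and 0 counts in set A and 0 in all Hp1α/β Δ/Δ libraries, against which it was at least 297-fold higher. The ratio of Gm8221 to Apol7c counts was 2.58, 2.43 and 2.25 in the 3 Hp1-null libraries. Since the counting could split shared reads between these genes, no proportion of their transcripts is read from it.

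Gm33962 had 502, 381 and 459 counts and a mean of 19.1 ± 2.09 CPM. It had 0 counts in set A, against which it was at least 136-fold higher. It was not at 0 in Hp1α/β Δ/Δ ESCs, where the libraries had 1, 14 and 9 counts (0.352 ± 0.272 CPM), and its mean in Hp1-null cells was 54.4 times that value. Of the 4 genes it was the only one with any count in Hp1α/β Δ/Δ ESCs.

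Gm50028 had 381, 254 and 413 counts and a mean of 14.8 ± 2.37 CPM. Set A and Hp1α/β Δ/Δ ESCs had 0 counts of it, and its level was at least 105-fold higher than the set A limit. The coefficient of variation over the 3 Hp1-null libraries was 6.01% for Gm8221, 10.9% for Apol7c and Gm33962, and 16.0% for Gm50028.

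**Figure D1:**
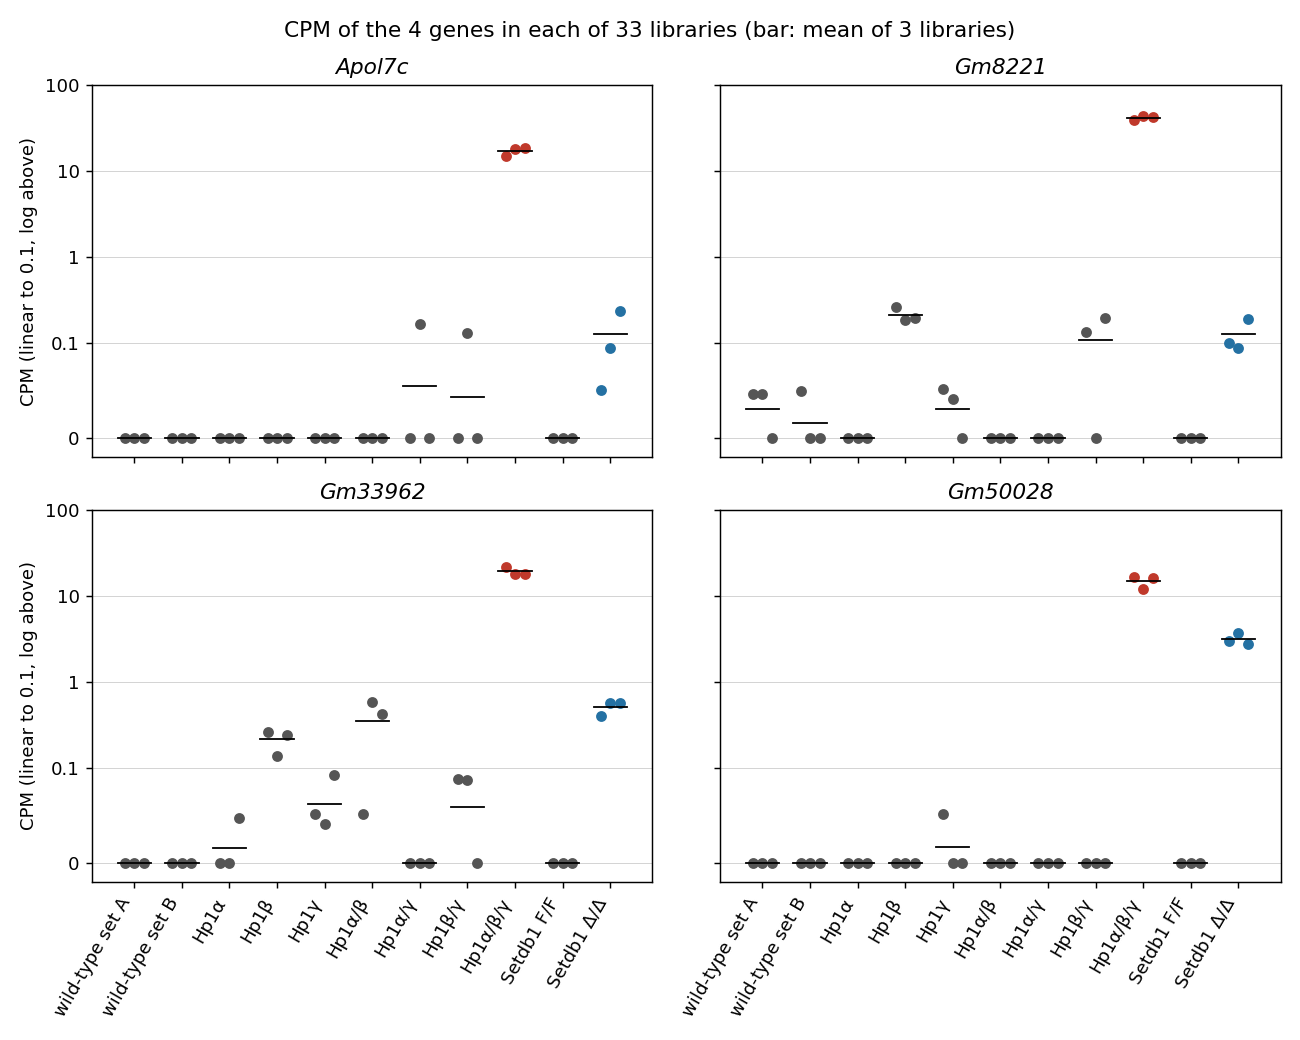
CPM (vertical axis, linear up to 0.1 and logarithmic above) of Apol7c, Gm8221, Gm33962 and Gm50028 in each of the 33 libraries, grouped by condition on the horizontal axis, with each point a library and each bar the mean of 3. The Hp1-null libraries lie between 12.07 and 43.97 CPM, and only Gm50028 exceeds 1 CPM in another condition, Setdb1 Δ/Δ cells.

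Levels can be compared between genes only per length, on the deposited TPM scale. The mean TPM in Hp1-null cells was 37.2 ± 2.07 for Gm8221, 18.1 ± 1.93 for Apol7c, 14.7 ± 4.65 for Gm50028 and 6.77 ± 0.780 for Gm33962. Apol7c and Gm50028 were not separated: the libraries of Apol7c, from 15.9 to 19.5 TPM, lay within the range of those of Gm50028. For Gm50028 the library with the fewest counts, library 2, had a higher TPM than libraries 1 and 3 (12.6 and 11.4), so its TPM did not follow its counts. With the listed length of 273 bases its CPM per kilobase would be 54.2, above the 37.5 of Gm8221, and its place in this order depends on the length used. The same holds for Apol7c. With its listed length of 2060 bases its CPM per kilobase would be 8.38, near the 7.38 of Gm33962.

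In the single and double mutants the 4 genes stayed near 0, with differences between genes. The fits kept none of the 4 in any of the 5 comparisons of Hp1α, Hp1β, Hp1γ, Hp1α/γ and Hp1β/γ Δ/Δ ESCs with their wild-type sets, since their counts were below the filter for low counts (edgeR quasi-likelihood test, filterByExpr at a minimum count of 10; a call needed a log2 fold change beyond 1 and a p below 0.05 after Benjamini-Hochberg adjustment). The number of members called higher was therefore 0 in each, and DESeq2, run on the same genes, tested none. Of all genes tested, 1.56% were called higher in Hp1α, 2.75% in Hp1β, 2.04% in Hp1γ, 6.75% in Hp1α/γ and 7.32% in Hp1β/γ Δ/Δ ESCs. Without the filter, edgeR could test 12 of the 20 pairs of gene and comparison.

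In Hp1β Δ/Δ ESCs the libraries had 5, 3 and 5 counts of Gm33962 (0.214 ± 0.0676 CPM), and set A and set B had 0 in each. All 3 libraries were above every wild-type library, but the lowest was at the limit of 3 counts. Since the set A zeros are part of the choice of the gene, no p-value is drawn from this comparison.

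Gm8221 had 5, 4 and 4 counts in Hp1β Δ/Δ ESCs (0.213 ± 0.0433 CPM), above every library of set A and set B, where no library had more than 1 count. The same limit holds for it.

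Among the single and double mutants, Gm33962 and Gm8221 had most of their counts where Hp1β was deleted, and Apol7c and Gm50028 did not. Over the 9 libraries of Hp1β, Hp1α/β and Hp1β/γ Δ/Δ ESCs, Gm33962 had 41 counts, 24 of them in Hp1α/β Δ/Δ ESCs, against 5 over the 9 libraries of Hp1α, Hp1γ and Hp1α/γ Δ/Δ ESCs. Gm8221 had 21 against 2, although its 3 Hp1α/β Δ/Δ libraries were at 0. Apol7c had 3 against 3, each from 1 library, and Gm50028 had 0 against 1. These sums are a description over libraries of different genotypes, which were not compared by a test, and Gm33962 and Gm8221 counts in set A and Hp1α/β Δ/Δ ESCs entered the choice.

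Hp1γ Δ/Δ ESCs had 1 count of Gm33962 in libraries 1 and 2 and 2 in library 3, after rounding. Hp1β/γ Δ/Δ ESCs had 2, 2 and 0 counts of Gm33962 and 3, 0 and 5 of Gm8221. The Hp1α/γ Δ/Δ ESCs had no counts of Gm33962, Gm8221 or Gm50028, and the 3 counts of Apol7c were in library 2, the library that stood apart. In wild-type set B, which the choice did not use, Apol7c, Gm33962 and Gm50028 had 0 counts in each library and Gm8221 had 1 in all. Hp1-null cells were at least 123-fold above the set B limit for Apol7c, 137-fold for Gm33962 and 106-fold for Gm50028.

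Loss of Setdb1 was read in a line of its own, with its own control, and none of these libraries entered the choice. Of all genes tested, 18.5% were called higher in Setdb1 Δ/Δ cells and 29.9% in either direction. Gm50028 was the only member that passed the filter and was called higher; with 0 counts in every Setdb1 F/F library, it could pass only through the Setdb1 Δ/Δ libraries. Its libraries had 59, 77 and 58 counts in Setdb1 Δ/Δ cells (3.12 ± 0.475 CPM) and 0 in each Setdb1 F/F library, so all 3 knockout libraries were above all controls. This was at least 18.9-fold, and the edgeR log2 fold change, which depends on the prior count, was 8.93 ± 0.634 (SE, adjusted p = 3.05e-09). The exact permutation test of CPM, 2-sided, gave p = 0.1, the smallest that 3 against 3 libraries allow, and 0.229 after Benjamini-Hochberg adjustment over the 16 pairs of gene and comparison with any count. Those pairs include comparisons with set A, whose counts entered the choice, so nothing is read from the adjusted value. The mean of Gm50028 in Hp1-null cells was 4.75 times that in Setdb1 Δ/Δ cells.

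Gm33962 followed at a lower level, with 8, 12 and 12 counts in Setdb1 Δ/Δ cells (0.512 ± 0.0956 CPM) and 0 in Setdb1 F/F ESCs, at least 3.10-fold. It was too low for the filter. Without the filter its adjusted p was 7.16e-07 by edgeR. The exact permutation test of CPM gave p = 0.1 for it, the smallest that this number of libraries allows. Its mean in Hp1-null cells was 37.4 times that in Setdb1 Δ/Δ cells.

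The Apol pair stayed at the limit of detection without Setdb1. Apol7c had 1, 2 and 5 counts and Gm8221 had 2, 2 and 4 in Setdb1 Δ/Δ cells, with 0 in every Setdb1 F/F library. Their means of 0.127 and 0.128 CPM were under the 0.165 CPM that 3 counts stand for in Setdb1 F/F ESCs, so no fold change is given. Every Setdb1 Δ/Δ library had a count of both genes and no Setdb1 F/F library had any. Without the filter edgeR gave adjusted p-values of 0.0335 for Apol7c and 0.0333 for Gm8221, on 8 counts each in the 3 libraries together. The exact permutation test of CPM gave p = 0.1 for each, the smallest that 3 against 3 libraries allow. Since reads could be split between the genes, their values are not independent.

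In the order of mean CPM over the 11 conditions, Hp1-null cells stood first for every gene, with all libraries above those of the next condition. Since the genes were chosen for expression in Hp1-null cells, this first place and the shares below are a description. For Gm50028 the next was Setdb1 Δ/Δ cells, again with all libraries above the rest, where only 1 count was seen, in Hp1γ Δ/Δ ESCs. For Gm33962 the next were Setdb1 Δ/Δ cells, Hp1α/β and Hp1β Δ/Δ ESCs (0.512, 0.352 and 0.214 CPM), whose neighbours in this order overlapped. For Gm8221 the next were Hp1β Δ/Δ ESCs at 0.213 CPM and Setdb1 Δ/Δ cells at 0.128, which also overlapped. Hp1-null cells held 98.7% of the sum of the 11 condition means for Gm8221 and for Apol7c, 94.0% for Gm33962 and 82.5% for Gm50028.

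Around Apol7c and Gm8221, expression in Hp1-null cells was restricted to few genes. The 2 genes share a cluster with most of the other Apol genes, flanked by Rbfox2, which encodes a splicing factor, and Myh9, a nonmuscle myosin heavy chain. Apol11a, Apol10a and 1700025B11Rik lie near Apol7c on the map, between the Apol7b and Gm8221 loci, and were at or near 0. Of 26 neighbours within 250 kb of Apol7c, 6 had 0 counts in all 33 libraries and 4 reached 1 CPM in Hp1-null cells. Of 24 neighbours of Gm8221, 7 had 0 counts throughout and 3 reached 1 CPM there.

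Over all members there were 46 neighbours, and 4 of them passed the filter in the comparison of Hp1-null cells with set A. All 4 were called, 2 higher and 2 lower, where 42.3% of all genes tested were called in either direction (edgeR quasi-likelihood test). Gm20688, annotated as sense intronic within Apol7a, had 40, 14 and 23 counts in Hp1-null cells (1.09 ± 0.553 CPM) and 0 in set A, with an adjusted p of 3.57e-06. Apol8, an apolipoprotein L gene, was at 2.78 ± 0.139 CPM and at 0.422 ± 0.156 in set A (log2 fold change 2.74 ± 0.336 SE, adjusted p = 4.29e-07). Genes that are low in the control pass the filter through the group where they are high, so these counts lean towards calls.

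The flanking genes fell. Rbfox2 was at 54.1 ± 1.63 CPM in Hp1-null cells and 224 ± 3.34 in set A (log2 fold change -2.01 ± 0.0354 SE, adjusted p = 6.42e-20), and Myh9 was at 342 ± 3.37 and 777 ± 29.99 CPM (log2 fold change -1.15 ± 0.0268 SE, adjusted p = 4.16e-18). Against Hp1α/β Δ/Δ ESCs the neighbours called were again Gm20688 and Apol8, higher, and Rbfox2 and Myh9, lower, where 41.4% of all genes were called. The comparisons share the Hp1-null libraries.

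**Figure D2:**
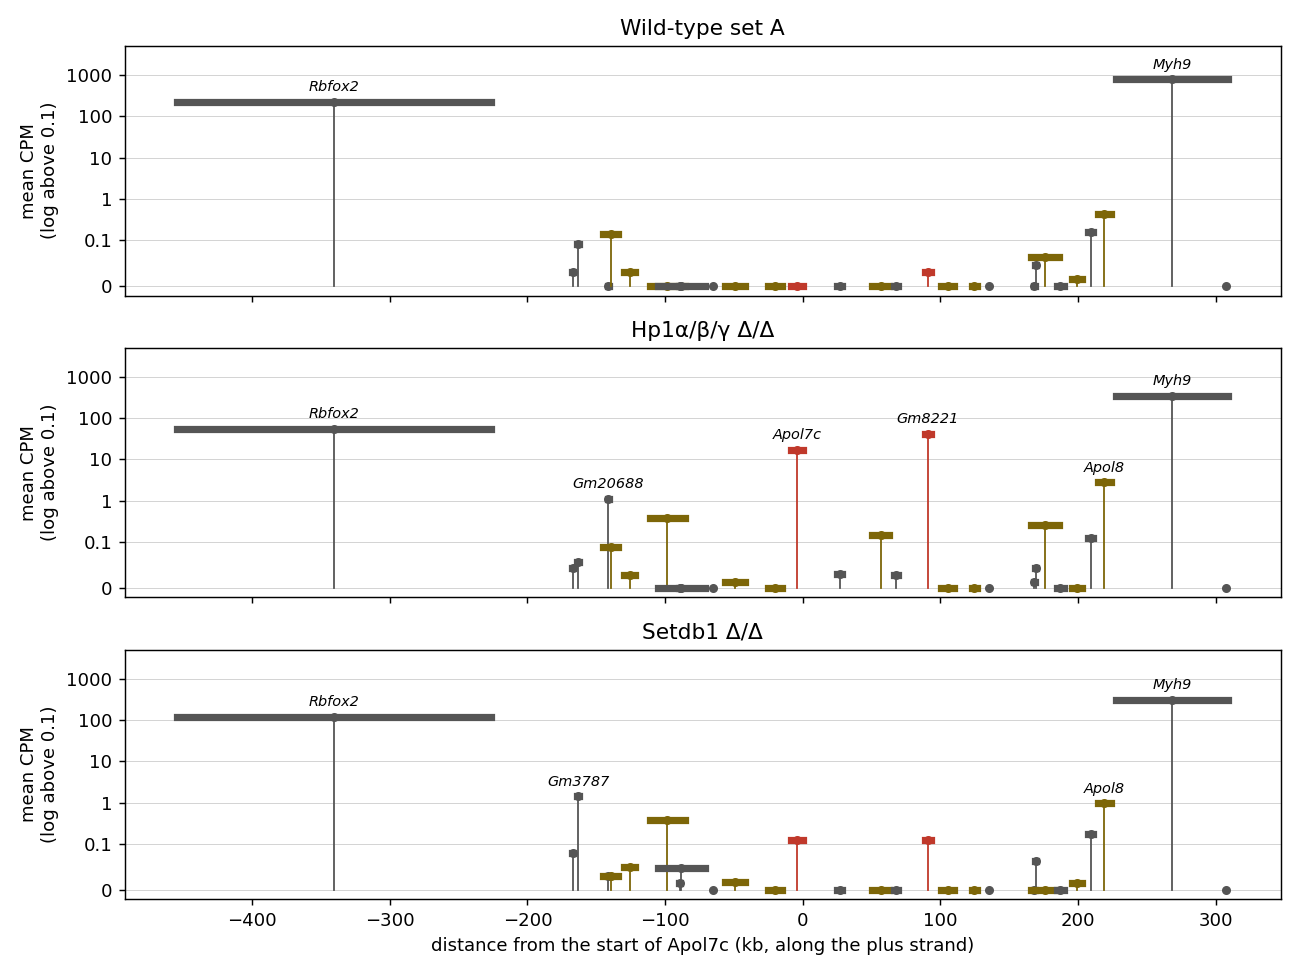
Mean CPM (vertical axis, linear up to 0.1 and logarithmic above) of the annotated genes within 250 kb of Apol7c or Gm8221, drawn as bars over their extent in kilobases from the start of Apol7c, in wild-type set A, Hp1-null and Setdb1 Δ/Δ cells; red marks Apol7c and Gm8221, and brown the other Apol genes. In Hp1-null cells Apol7c and Gm8221 stand at 17.3 and 41.6 CPM, while the Apol genes between them and on both sides are at 2.78 CPM or less.

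The 12 other Apol genes were low in every condition, with a highest condition mean of 3.44 CPM. In Hp1-null cells 2 of them were tested against set A and 1, Apol8, was called. Apol7b, a close relative of both members (88.7% identical to Apol7c over 1229 aligned bases), had its highest level in another mutant: it had 72, 63 and 67 counts in Hp1β/γ Δ/Δ ESCs (2.84 ± 0.302 CPM) and 0 in every set B library, with an adjusted p of 5.43e-08 by edgeR, while in Hp1-null cells it had 7, 12 and 7 counts (0.381 CPM). With 0 counts in set B, Apol7b could pass the filter only through the Hp1β/γ Δ/Δ libraries, which leans towards a call. Of all genes tested there, 7.32% were called higher. Apol7c and Gm8221 had 3 and 8 counts in those Hp1β/γ Δ/Δ libraries. Apol6, which lies outside the 250 kb window, was at 3.44 ± 0.891 CPM in Hp1α/γ Δ/Δ ESCs, against 0.447 ± 0.210 in set B (adjusted p = 0.000769), and Apol8 was at 0.723 and 0.0905 CPM in the same comparison (adjusted p = 0.0082). Without library 2, which stood apart, the Apol6 values of that mutant were 2.64 and 3.26 CPM and those of Apol8 were 0.636 and 0.653, all above every set B library. Of these, the highest mean was that of Hp1β/γ Δ/Δ ESCs for Apol7b, of Hp1α/γ Δ/Δ ESCs for Apol6 and of Hp1-null cells for Apol8. The controls differed for Apol8: set A was at 0.422 CPM and Setdb1 F/F ESCs at 1.86, both above set B. Its call in Hp1α/γ Δ/Δ ESCs was therefore made against the lowest control.

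In Setdb1 Δ/Δ cells 1 Apol gene was tested and none was called by edgeR: Apol8 was at 0.960 CPM, against 1.86 in Setdb1 F/F ESCs (log2 fold change -0.94 ± 0.291 SE, adjusted p = 0.00708, short of the fold threshold). Of the 46 neighbours, 4 were tested and 2 called, where 29.9% of all genes were called. Myh9 fell (298 against 655 CPM), and Gm3787, a processed pseudogene between Rbfox2 and Apol7a, rose from 0.134 to 1.41 CPM (log2 fold change 3.41 ± 0.504 SE, adjusted p = 8.31e-06). Gm3787 was at 0.0559 CPM in Hp1-null cells.

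The other members had silent surroundings. Of 17 neighbours of Gm33962, all annotated pseudogenes, 13 had 0 counts in all 33 libraries and none reached 1 CPM in any condition. Gm44527 and Gm44133, relatives of Gm33962 in sequence, are among the 17. Gm50028 had 2 neighbours within 250 kb, Gm26124 and Gm16391, both with 0 counts throughout.

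Other genes met the same description as the 4 members. With 0 counts in all 3 libraries of set A or of Hp1α/β Δ/Δ ESCs and a mean of 5 CPM or more in Hp1-null cells, 22 genes were found, and the members were numbers 1, 3, 5 and 8 of them by mean CPM. Nr4a3, an orphan nuclear receptor gene, stood below Gm8221 at 39.2 CPM, and after Gm33962 and around Apol7c came Vmn1r9, a vomeronasal receptor gene, at 17.8, the lincRNA Gm6471 at 16.1 and the pseudogene Gm15703 at 15.9 CPM. Just below Gm50028 were Cntnap4, a cell adhesion gene, at 14.7 CPM and the pseudogene Gm8184 at 11.5. Of the 22, 12 were at 0 in set A alone, 3 in Hp1α/β Δ/Δ ESCs alone and 7 in both. Apol7c and Gm50028 belonged to the 7, Gm33962 to the 12 and Gm8221 to the 3.

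Of the 22 genes, 10 are annotated as other than protein coding, 3 of the members among them. In the single and double mutants 21 of the 22 stayed under 1 CPM in every condition, the exception being Zscan4f, a gene of the 2-cell-like state, at 12.99 CPM in 1 of them.

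In Setdb1 Δ/Δ cells the 22 genes spread widely. Their median was 0.686 CPM, 13 were under 1 CPM, and 2, Gm47887 (133 CPM) and Zscan4f (19.8 CPM), were higher there than in Hp1-null cells. Gm50028, at 3.12 CPM, was above the median, and Gm33962, Apol7c and Gm8221 were below it. Vmn1r9 and Gm15703 had levels like those of the Apol pair, at 0.0492 and 0 CPM. The 11 genes of the 22 that passed the filter in this comparison were all called higher, but with controls near 0 they could pass only through the Setdb1 Δ/Δ libraries.

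**Figure D3:**
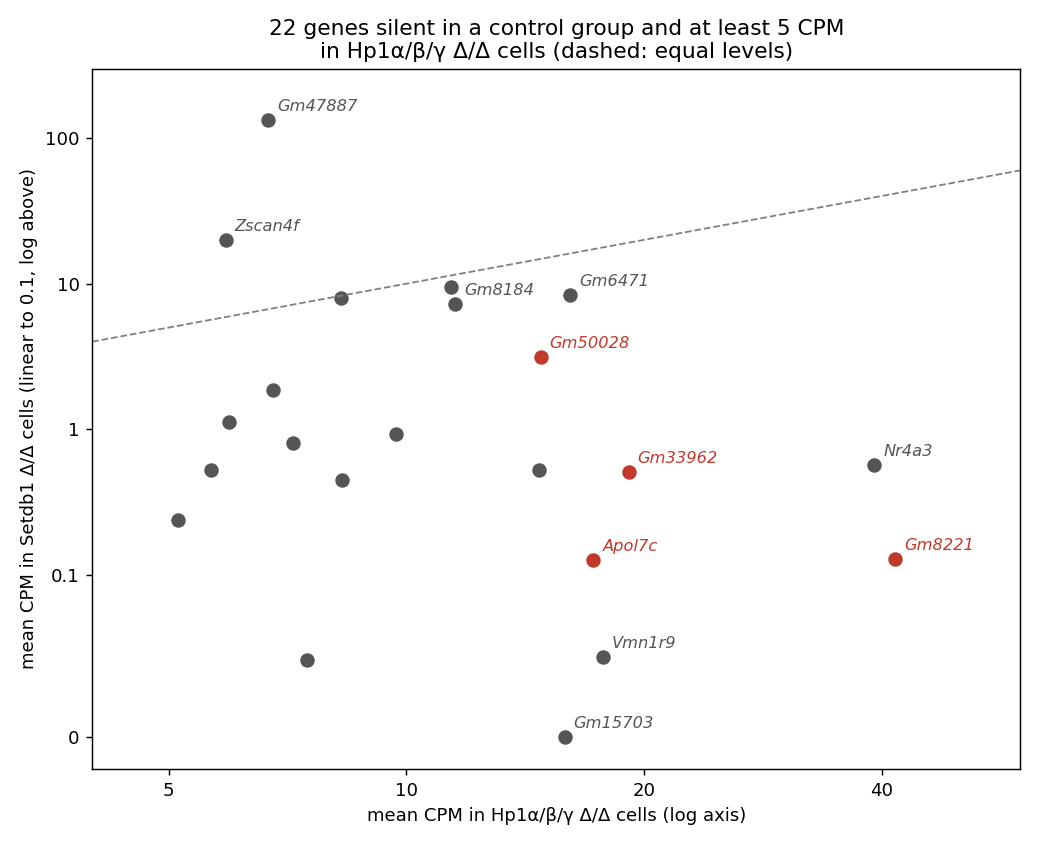
Mean CPM in Setdb1 Δ/Δ cells (vertical axis, linear up to 0.1 and logarithmic above) against mean CPM in Hp1-null cells (horizontal logarithmic axis) for the 22 genes with 0 counts in set A or Hp1α/β Δ/Δ ESCs and at least 5 CPM in Hp1-null cells; red points are the 4 members and the dashed line marks equal levels. Gm50028 lies at 14.8 and 3.12 CPM, while Apol7c and Gm8221 lie near 0.13 CPM on the vertical axis.

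The patterns of the members over the 11 condition means were compared with those of 17529 genes at 1 CPM or more in a condition, by Pearson's r of log2(CPM + 1). Since 1 condition holds nearly all of each member's signal, high values are common, and r is given as a description over points that share libraries and depth. For Apol7c the nearest genes were Gm20688 (r = 0.9997), Olfr1510 (0.9996), and Gm47889, Gm9195 and Gm49477 (0.9995 each). Gm20688 is its neighbour in the Apol cluster. For Gm8221 they were Gm35850 (0.9993), Lhcgr, the luteinizing hormone receptor gene (0.9991), and Gm15703, Gm34045 and Gm47612 (0.999 each).

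For Gm33962 the nearest were Skap1 (0.9969), Gm34672 (0.9966), Nr4a3 (0.9965), Tac4 (0.996) and Gm17324 (0.9957). Skap1, an adaptor of the T cell receptor, was at 8.40 CPM in Hp1-null cells and 0.500 in Setdb1 Δ/Δ cells. For Gm50028 the nearest were Olfr417, an olfactory receptor gene (0.9995), Fam83a (0.9985), Hhipl2 (0.9957), Arhgef33 (0.9946) and Gm13283 (0.9941). Like Gm50028, each had a level above 1 CPM in Setdb1 Δ/Δ cells, with Fam83a at 19.8 CPM in Hp1-null cells and 4.49 in Setdb1 Δ/Δ cells. Between members r was 0.9983 for Apol7c and Gm8221, and from 0.8895 to 0.9248 for Gm50028 with each of the others.

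The transcripts of genes that act with HP1 on H3K9 methylation were read in the same comparisons. Of a list of 18 genes, 17 were in the tables and tested. In Hp1-null cells against set A 5 fell (29.4%, against 17.1% of all genes tested) and 1 rose (5.88%, against 25.1%), with a median log2 fold change of -0.767 against 0.035 over all genes. Ehmt1, an H3K9 methyltransferase gene, was at 52.0 against 164 CPM, Dnmt1, the maintenance DNA methyltransferase, at 169 against 391 CPM, and Atrx, a chromatin remodeller, at 314 against 693 CPM. Atf7ip, the partner of SETDB1, was the gene that rose, from 112 to 241 CPM. The other 2 that fell were the deleted Cbx1 and Cbx3, which the share of 29.4% counts.

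Against Hp1α/β Δ/Δ ESCs 4 of the 17 fell (23.5%, against 16.0% of all genes) and 0 rose (against 25.4%), with a median of -0.704 against 0.0345 over all genes. The 4 were Ehmt1, Dnmt1, Cbx1 and Cbx3, so the share of 23.5% counts deleted genes. Cbx3 is deleted only in the Hp1-null cells here. Cbx1 is deleted in both groups (44.4 against 96.4 CPM), and why it was lower in Hp1-null cells was not tested. In Setdb1 Δ/Δ cells 2 fell, Ehmt2 (75.9 against 223 CPM) and Suv39h2 (12.2 against 39.5), both H3K9 methyltransferase genes. This is 11.8% of the list, against 11.4% of all genes. There 2 rose (11.8%, against 18.5% of all genes), Atf7ip (324 against 86.4 CPM) and Mphosph8, a reader of the mark (209 against 92.4).

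Markers of other cells also moved. The summed level of the 9 ESC markers was 1350 to 1380 CPM in Hp1-null libraries and 2780 to 2790 in set A, and 6 of 9 were called lower. Of all genes tested in this comparison, 25.1% were called higher and 17.1% lower. In bulk RNA, fewer cells of a type and less RNA per cell cannot be told apart. The 9 feeder fibroblast markers summed to 11.9 to 13.1 CPM against 27.8 to 29.6 in set A (7 tested, 1 higher and 3 lower). The 11 dendritic cell and macrophage markers, listed because Apol7c is known from dendritic cells, summed to 19.1 to 21.2 CPM against 14.4 to 16.1 (4 tested, 2 higher and 1 lower), with Clec9a at 0 counts and 3 of 11 at 1 CPM or more. Those called higher were Cd74 (8.49 against 4.21 CPM) and Irf8 (7.79 against 2.97), and Zbtb46 was lower. Against Hp1α/β Δ/Δ ESCs 5 of these 11 markers were tested, 2 higher and 3 lower, where 25.4% and 16.0% of all genes were. Their sum in Hp1β/γ Δ/Δ ESCs, 19.2 to 20.5 CPM, lay within the Hp1-null range, while Apol7c was at 0.0436 CPM there.

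In Setdb1 Δ/Δ cells the ESC markers summed to 4580 to 4600 CPM against 6870 to 6900 in Setdb1 F/F ESCs, with 2 of 9 called lower. Of all genes tested there, 18.5% were called higher and 11.4% lower. The feeder markers summed to 4.62 to 6.03 against 10.2 to 11.5 CPM (3 tested, 0 higher and 2 lower). The dendritic cell and macrophage markers summed to 9.84 to 10.8 against 5.53 to 5.79 CPM (4 tested, 2 higher and 0 lower), with Clec9a at 0. The part of these changes in cell state in the levels of the 4 genes was not tested.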

How the data were processed

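The authors deposited 8 tables, 1 for each mutant with its control. Per the labels, reads were processed with TopHat2 2.1.1 and RSEM on GRCm38.p5. The expected counts (estimated counts per gene) deposited by the authors are not normalized, and 12.865% of them are not whole numbers. The deposited TPM values were scaled by the authors to gene length and depth. The authors' fold changes, p-values, calls and group means were not used.

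Counts were rounded to whole numbers. Each comparison was fitted on its 6 libraries in edgeR 4.0.16 (R 4.3.3, limma 3.58.1; filterByExpr at a minimum count of 10, TMM, glmQLFit, glmQLFTest), with Benjamini-Hochberg adjustment over all genes tested, and a gene was called where the log2 fold change exceeded 1 in either direction with an adjusted p below 0.05. CPM were TMM-scaled over all 33 libraries. Total counts ran from 17330936 to 25743149. The scripts were tested on simulated data. Positions come from GENCODE M21, which matched 55227 of 55487 genes, and transcripts were compared with BLAST.

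The members and all gene lists were chosen with earlier results of these data known. Named besides the members were Apol genes and neighbours that were called or reached 5 CPM, the 5 genes most like each member, HP1 and SETDB1 genes, and the silent genes next to the members in level. The sequence relatives of Gm33962, Apol10a, Apol11a, 1700025B11Rik, Gm47887, Zscan4f and the markers Cd74, Irf8 and Zbtb46 were named after their values were seen. Alternatives were RLE size factors, DESeq2 1.42.0, no filter beyond 1 count, no fold threshold, a joint fit, the other wild-type set, a block for the replicate number, and leaving out each library.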

Additional observations from a re-analysis of the deposited data

How the results depend on the processing

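Of 169 alternative values, 147 kept the direction and the side of the threshold, or stayed within 1.5 times a count, and 0 reversed. The rest were counts of calls or of genes. In Setdb1 Δ/Δ cells 1 member was called, 4 without the filter, and 1 to 2 when 1 library was left out: it was 2 without any one of the Setdb1 F/F libraries 1, 2 and 3, or without Setdb1 Δ/Δ library 1, since Gm33962 then passed the filter (log2 fold change 6.33 to 6.48, adjusted p from 0.000127 to 0.000318 by edgeR). Gm33962 had 0 counts in every Setdb1 F/F library, so it could pass only through the Setdb1 Δ/Δ libraries. Gm50028 was called under all 10 alternatives (log2 fold change 8.29 to 9.0, adjusted p from 1.17e-40 to 1.27e-07). In Hp1β Δ/Δ ESCs 0 members were called, 1 without the filter and 2 in the joint fit; these tests use the set A zeros of the choice, and in the joint fit the members pass the filter through the Hp1-null libraries, so nothing is read from them. Without the filter the Apol genes called in Hp1-null cells went from 1 to 3 against set A and from 1 to 4 against Hp1α/β Δ/Δ ESCs, and the neighbours from 4 to 7 and from 4 to 8. The Apol genes called in Setdb1 Δ/Δ cells went from 0 to 1 without the fold threshold, to 2 without the filter, and to 0 to 2 with 1 library left out: 2 without Setdb1 F/F library 2 or Setdb1 Δ/Δ library 1 or 2, and 1 without library 3 of either. The neighbours called there went from 2 to 4 without the fold threshold. The 22 silent genes became 173 at 1 CPM or more, 7 with 0 counts in both groups and 44 with at most 3 counts. A filter that tests more or fewer genes is part of how these alternatives were built, and for the others the cause was not tested. The replicate block changed none of its 13 values. Samples with the same replicate number did not deviate together (correlations from -0.0762 to 0.103). This check cannot exclude that they were paired by experiment. Depth limits the values outside Hp1-null cells, most of which were under 3 counts a library.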
